A study of Homo sapiens with 12 samples.

Results

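Genes that the transcription factor ATF4 is known to control, with genes of serine, one-carbon, proline and asparagine synthesis, amino acid uptake and tRNA charging, were compared between fast and parental cells. The set was a list of 37 gene symbols, matched by symbol to the rows of a table of raw read counts for 60234 genes. All 37 were found. Of these, 36 passed the filter on low counts and were tested, and the exception was CBS. The list was drawn up with earlier results of these counts in view, so that it is not an independent choice. MDA-MB-231, the source of both, is an established cell line from a triple-negative breast cancer. The parental population is the line as cultured. The fast population is a subpopulation of the line that was captured by the path its cells took while they migrated, and no genetic change or drug is named for either. RNA from both was sequenced in 2 batches, with 3 libraries of each population in each batch, so that each population has 6 libraries of the 12. The libraries are described as technical replicates, and the design text counts 2 biological replicates. The p-values below therefore cover only how libraries vary, and that variation may be technical. Capture and all that followed it differ together between the populations and cannot be told apart, and the sources used here do not say how many cells were captured or how long they were grown.

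When amino acids run short or unfolded protein builds up, kinases phosphorylate the initiation factor eIF2. General translation then slows, while the ATF4 mRNA is translated better, so that ATF4 protein is largely set after transcription. ATF4 pairs with C/EBP proteins on a composite DNA element and switches on genes for amino acid synthesis, uptake and tRNA charging, and also CHOP (DDIT3), TRIB3, CHAC1 and SESN2. In breast cancer the serine pathway is known for PHGDH, which lies in a region gained in some tumours, and MDA-MB-231 is known as a line with little of that enzyme. RNA counts report neither ATF4 protein nor eIF2 phosphorylation.

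The composite element has the core TGATGNAA. It was searched on both strands of windows running from 250 bases before to 50 bases after each annotated gene start, in RefSeq promoter sequences of build GRCh38.p14. Of the 37 genes, 32 had at least 1 window there. The core was found for 13 of these 32, or 40.6%, against 4.46% of all 27305 genes with a window. Counted by window, it stood in 15 of 53 windows of the listed genes (28.3%) and in 3.62% of all 35116 windows of that length. Since the list was gathered around ATF4, and some of its genes are textbook carriers of this element, the 2 shares are a description of the list. Below are 9 of the 13 matches, chosen to show genes that rose, 1 that fell (SLC1A4) and 1 that did not pass the test (ASNS). Each line gives the strand on which the core reads 5′ to 3′ as TGATGNAA, with the core in capitals.
CHAC1 (chr15:40953251-40953280, minus strand): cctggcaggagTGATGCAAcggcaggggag
CEBPG (chr19:33374060-33374089, plus strand): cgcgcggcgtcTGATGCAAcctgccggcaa
ASNS (chr7:97872458-97872487, minus strand): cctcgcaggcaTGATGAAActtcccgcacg
AARS (chr16:70289675-70289704, plus strand): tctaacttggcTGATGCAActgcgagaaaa
GARS (chr7:30594834-30594863, minus strand): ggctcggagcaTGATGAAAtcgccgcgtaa
MARS (chr12:57488053-57488082, minus strand): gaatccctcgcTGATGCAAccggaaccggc
SLC38A1 (chr12:46266502-46266531, minus strand): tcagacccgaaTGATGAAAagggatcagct
SLC3A2 (chr11:62881725-62881748, minus strand): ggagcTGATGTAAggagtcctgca
SLC1A4 (chr2:64989381-64989410, minus strand): ccggctggagaTGATGCAAacgggagccgc
The core of CEBPG ends 35 bases before the annotated start, that of GARS 26, that of ASNS 61, that of AARS 180 and that of CHAC1 202 bases before it. Those of MARS, SLC38A1 and SLC1A4 lie across the start, and that of SLC3A2 begins 37 bases after it. The other matches were in MTHFD1L, GOT1, SLC7A1 and SLC1A5. Of the 13 genes with the core, 10 were higher and 1 was lower in fast cells, and their median log2 fold change was 0.15. Of the 18 tested genes with a window but no match, 10 were higher and 5 lower, and the median was 0.14. Of all genes tested, 31.9% were higher and 31.5% lower. Calls of genes with the core outside the list were not counted, and the difference between these groups was not tested. A match is a match of letters only and was not tested as a binding site.

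Depth ran from 53267145 to 75944907 counts per library. The 37 genes took 0.643% to 0.656% of a library's counts in fast and 0.501% to 0.539% in parental cells. Mitochondrially encoded genes took 2.09% to 3.41% in fast and 2.08% to 2.91% in parental libraries. The line's marker VIM, an intermediate filament protein, had 5050 CPM in parental and 6912 CPM in fast cells, the cadherin CDH1 had at most 4 counts in a library, and the estrogen receptor ESR1 had 0.139 CPM in each population. The progesterone receptor PGR was low but higher in fast cells, with 0.477 CPM in parental and 2.05 CPM in fast cells (2.12 ± 0.16 SE, edgeR adjusted p = 6.2e-14). ERBB2, which encodes HER2, had 62.4 CPM in parental and 59.0 CPM in fast cells, the epithelial marker EPCAM had 11.2 CPM in parental and 11.2 CPM in fast cells, and the keratin KRT18 had 306 CPM in parental and 358 CPM in fast cells. Most markers of other cell types were low, but not all of them. The 10 leukocyte markers summed to 1.248 to 1.724 CPM in fast and 1.60 to 2.68 CPM in parental libraries. The 8 fibroblast markers summed to 9.13 to 11.7 and 14.2 to 16.6 CPM, with DCN and LUM at 0, and the 6 endothelial markers to 10.1 to 13.0 and 8.52 to 11.1 CPM, with none at 0. Most of the fibroblast sum was COL1A1, with 14.2 CPM in parental and 9.32 CPM in fast cells (-0.61 ± 0.064 SE). Most of the endothelial sum was KDR, with 8.61 and 10.8 CPM (0.34 ± 0.062 SE). The highest leukocyte marker was CSF1R, with 1.38 and 0.772 CPM (-0.83 ± 0.18 SE). Each was called, and COL1A1 and KDR stood near the level of EPCAM. The part of these markers in the results was not tested.

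Most of the set was higher in fast cells. In edgeR's quasi-likelihood test over all 22668 genes that passed the filter, with batch as a term, 24 of the 36 genes were higher and 7 lower at a Benjamini-Hochberg adjusted p under 0.05, and 5 were not called (63.4% of all genes were called either way). Higher calls made up 66.7% of the set against 31.9% of all genes tested, and lower calls 19.4% against 31.5%. Most of the set is well expressed, and 34 of the 36 had a mean of at least 5 CPM in both populations. CPM is the count scaled to a common library total with TMM factors. Among the 12420 genes at a mean of that level, 43.5% were higher and 36.1% lower. The changes were mostly small. The median log2 fold change, fast over parental, was 0.16 over the 36 genes and 0.0055 over all genes. At least 1.5-fold, 7 were higher (PHGDH, CHAC1, ALDH1L2, SLC7A5, SLC38A2, AARS and SLC38A1) and 3 lower (SESN2, TRIB3 and CTH), or 19.4% and 8.33%, against 9.93% and 13.2% of all genes. At least 2-fold, PHGDH, CHAC1 and ALDH1L2 were higher and SESN2 was lower, against 3.98% and 6.92% of all genes. In bulk RNA a change in every cell and a change in the share of cells that express a gene cannot be told apart.

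**Figure D1:**
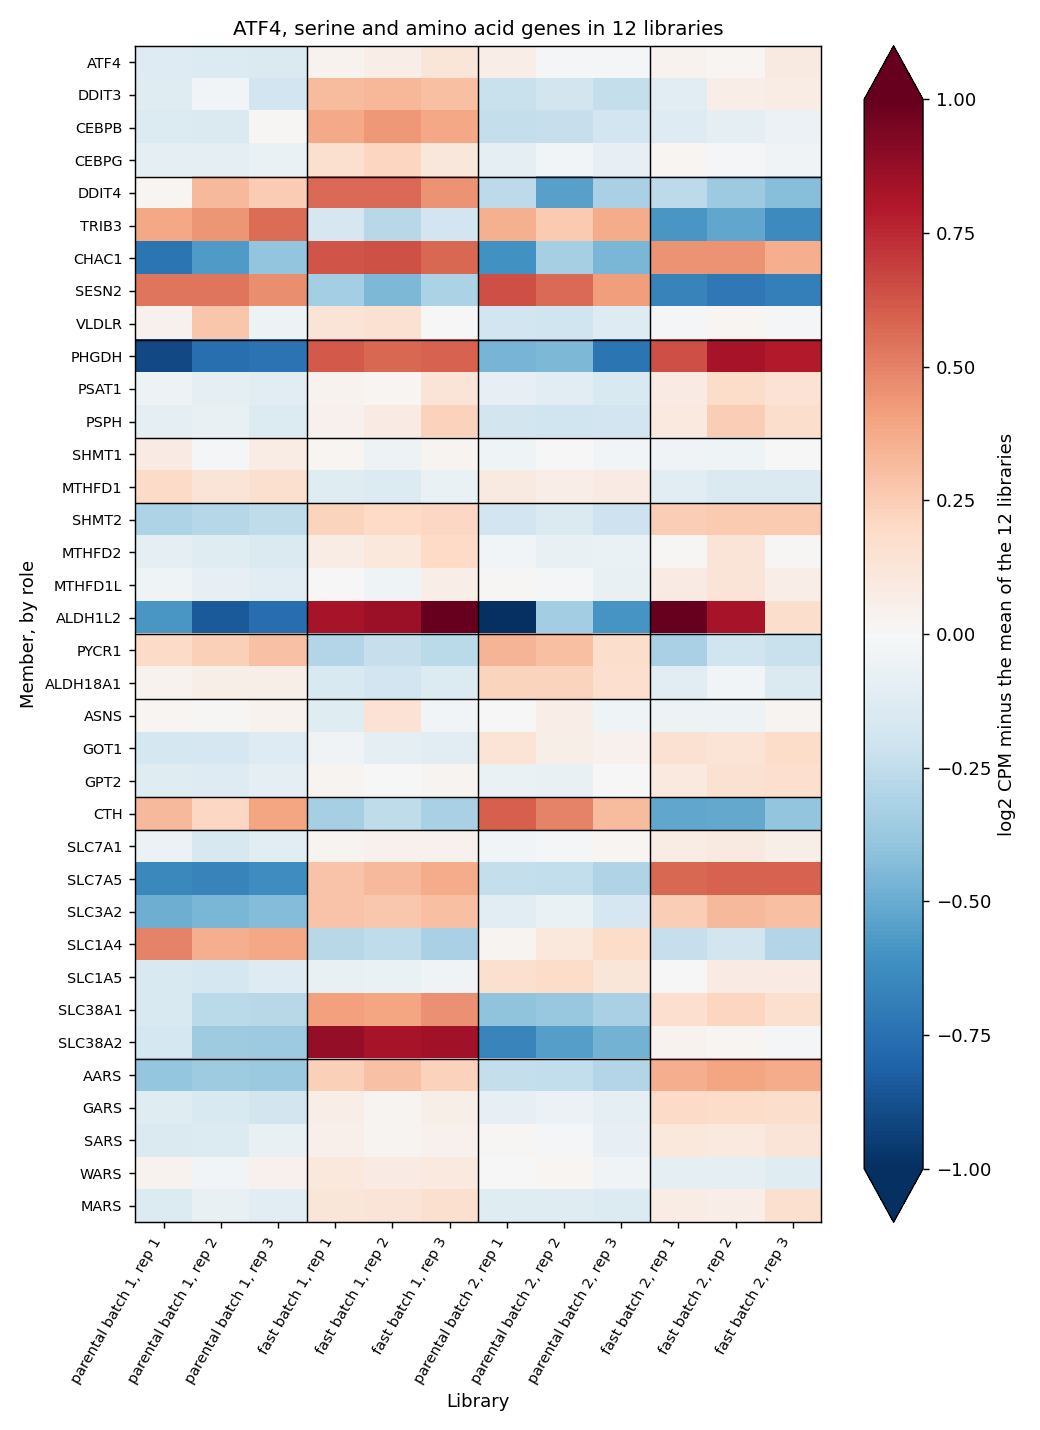
Level of each of the 36 tested genes (rows, grouped by role) in the 12 libraries (columns), as log2 CPM minus the mean of the gene over all libraries, with the color scale running from -1 to 1. PHGDH, CHAC1, SLC7A5 and AARS are red in all 6 fast libraries and blue in all 6 parental ones, and TRIB3, SESN2, PYCR1 and CTH show the reverse.

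Within the batches the picture was close to this. In batch 1, 24 genes were higher and 7 lower (29.0% and 27.1% of all genes were, 56.1% either way), and in batch 2, 20 were higher and 9 lower (27.4% and 28.6%, 56.0% either way). In both batches 19 were called higher and 7 lower, against 23.0% of all genes in each direction. Only the glutamine transporter SLC1A5 and the tryptophan synthetase WARS were called with opposite signs, and 0.388% of all genes were. These small effects did not hold throughout. With DESeq2 size factors the batch 1 calls of SLC1A5 and WARS were lost (edgeR adjusted p = 0.0565 and 0.16), and so they were without any 1 of the fast libraries of batch 2 (0.0547 to 0.0787 and 0.169 to 0.234). That of WARS was also lost without fast batch 1 replicate 1, or without replicate 2 of the parental batch 1 or 3 of the parental batch 2 libraries (0.0617 to 0.133). In batch 2, SLC1A5 lost its call without fast replicate 1 (0.185) or parental replicate 2 (0.0678), and WARS without any 1 of the fast libraries or parental replicate 1 or 2 (0.0556 to 0.181). Over all 12 libraries, the 6 fast values lay above all 6 parental values for 17 genes and below them for 7, or 47.2% and 19.4%, against 18.8% and 19.6% of all genes. For the other 12 the ranges overlapped. Within batch 1 the fast libraries lay above the parental ones for 25 genes and below for 7 (31.4% and 29.0% of all genes), and within batch 2 for 22 and 9 (30.0% and 31.2%). The shares of all genes in this paragraph include genes under a mean of 5 CPM. Shares among the better expressed genes alone were not counted here, so that part of the excess may go with level.

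Many genes of this pair of populations moved with their neighbours on the chromosome, so each gene was also compared with the median log2 fold change of up to 10 expressed genes on each side (a mean of at least 1 CPM, in the gene order of GENCODE release 29). Centred on that median, 14 genes were higher, 14 lower and 8 not called, against 27.1% and 29.3% of all genes. The median entered the fit as a fixed value. The centred p-values and calls, here and below, therefore leave out the spread among the neighbours, and whether a gene differs from them beyond that spread was not tested. Of the 24 higher, 13 kept their call and direction, and so did 6 of the 7 lower. The sign turned, with a call, for 5: DDIT4, MTHFD1L, GOT1, GPT2 and AARS. The call was lost for 7: ATF4, CEBPB, CEBPG, SESN2, MTHFD2, SLC7A1 and GARS. It was gained for SHMT1, ASNS and SLC1A5, each lower, and for WARS, higher. The neighbours' median had the sign of the gene itself for 28 of the 36. How many of all genes kept, lost or turned their calls, or had their neighbours' sign, was not counted. These counts are therefore a description of the set, and whether other genes differ from it here was not tested. Across the 36 genes, Pearson's r between the 2 quantities was 0.46 and Spearman's rho 0.28, a description over genes of the same libraries. Over 15569 genes these were 0.38 and 0.57. Neighbours share the same 12 libraries, and whether a change of DNA copy lies behind any shared movement was not tested.

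**Figure D2:**
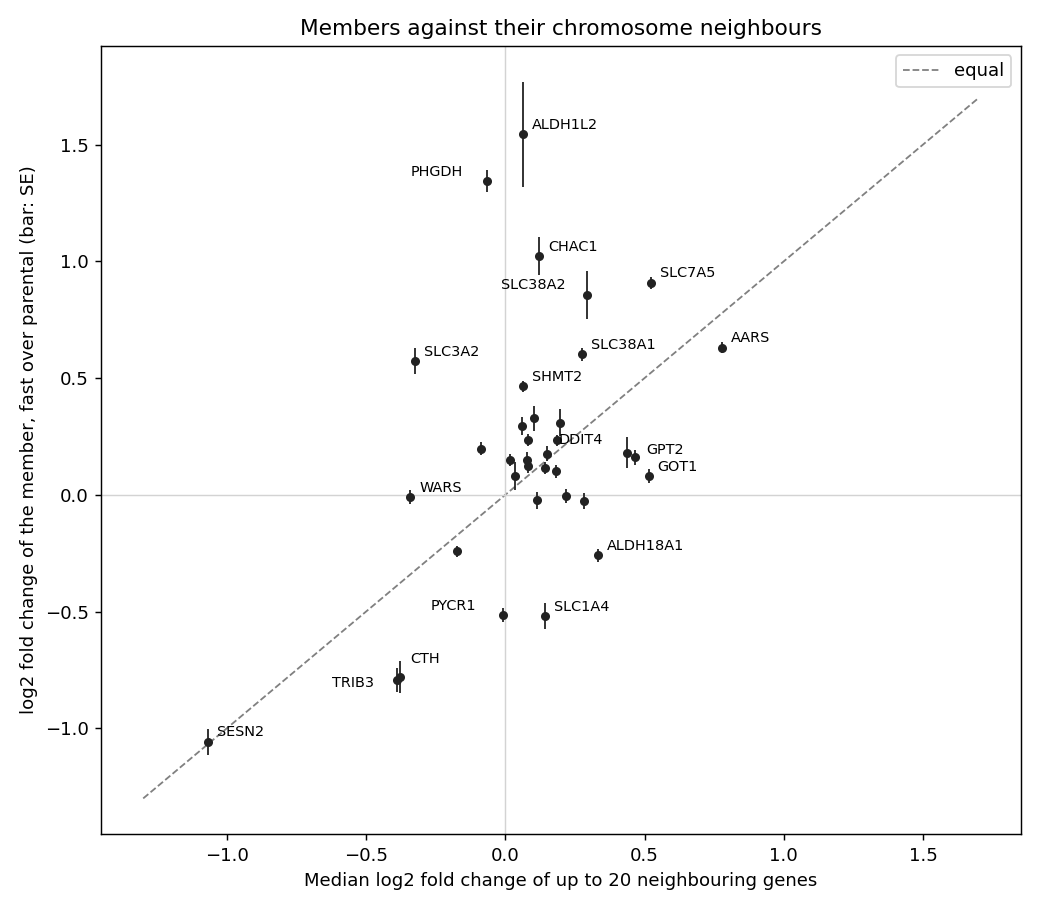
Log2 fold change of each of the 36 genes, fast over parental (vertical axis, bars are standard errors), against the median log2 fold change of its chromosome neighbours (horizontal axis), with a dashed line where both are equal. SESN2 lies on the line, AARS, GOT1 and GPT2 lie below it at positive values of both, and PHGDH, ALDH1L2, CHAC1 and SLC3A2 lie well above it.

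Of the transcription factors, all 4 were called higher in fast cells, by little. ATF4 stood at 239, 238 and 237 CPM in the parental and 268, 274 and 284 CPM in the fast libraries of batch 1, and at 274, 259 and 259 and 268, 264 and 279 CPM in those of batch 2. In batch 1 all fast values lay above the parental ones, while in batch 2 they overlapped. The fold was 1.09 (log2 fold change 0.12 ± 0.029 SE, edgeR adjusted p = 0.000413). CEBPB stood at 79.01, 78.4 and 87.6 CPM in the parental and 113, 117 and 113 CPM in the fast libraries of batch 1, and at 73.5, 73.9 and 75.8 and 79.4, 81.5 and 83.5 CPM in those of batch 2. The fast libraries were above the parental ones within each batch, but those of batch 2 lay within the range of the parental libraries of batch 1. CEBPB encodes C/EBPβ, a partner of ATF4 (log2 fold change 0.31 ± 0.059 SE, edgeR adjusted p = 0.000485). DDIT3, which encodes the stress factor CHOP, rose from 12.4 to 15.6 CPM (0.33 ± 0.054 SE, edgeR adjusted p = 2.16e-06). CEBPG, the partner C/EBPγ, rose from 57.5 to 63.95 CPM (0.15 ± 0.034 SE, edgeR adjusted p = 0.000232). After centring on neighbours, DDIT3 kept its call (0.22, adjusted p = 0.000549 in edgeR), while ATF4 (0.041, 0.238), CEBPB (0.11, 0.124) and CEBPG (0.075, 0.0622) did not. Exons of DDIT3 and of the synthetase gene MARS overlap on opposite strands, and whether strand was used in counting is not stated in the labels, so that reads there cannot be assigned with certainty. In all, exons of 17 of the 37 genes overlap another gene's, on the opposite strand, the same strand or both. Reads there are uncertain too, and on the same strand counting by strand would not separate them.

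The stress-induced regulators moved apart. CHAC1 stood at 3.12, 3.504 and 3.96 CPM in the parental and 8.03, 8.06 and 7.75 CPM in the fast libraries of batch 1, and at 3.41, 4.12 and 3.78 and 7.08, 7.09 and 6.67 CPM in those of batch 2. Every fast library was above every parental one. CHAC1, an enzyme that degrades glutathione, rose 2.03-fold (1.02 ± 0.08 SE, edgeR adjusted p = 2.44e-13). TRIB3 stood at 23.3, 24.2 and 26.2 CPM in the parental and 15.8, 14.7 and 15.6 CPM in the fast libraries of batch 1, and at 22.8, 21.4 and 22.95 and 11.9, 12.4 and 11.5 CPM in those of batch 2. Here every fast library was below every parental one. TRIB3, a pseudokinase that restrains ATF4 and CHOP activity, was 1.73 times lower (-0.79 ± 0.05 SE, edgeR adjusted p = 8.18e-16). SESN2 stood at 28.5, 28.4 and 27.1 CPM in the parental and 15.5, 14.4 and 15.8 CPM in the fast libraries of batch 1, and at 30.8, 29.2 and 26.3 and 12.4, 12.01 and 12.2 CPM in those of batch 2. SESN2, a sestrin that senses leucine and holds mTORC1 back, likewise had no overlap and was 2.08 times lower (-1.06 ± 0.056 SE, edgeR adjusted p = 3.78e-17). Its neighbours had a median of -1.07, and centred on them its log2 fold change was 0.011 (edgeR adjusted p = 0.888). TRIB3 had neighbours at -0.39 and kept a fall of -0.41, and CHAC1 had neighbours at 0.12 and kept a rise of 0.90.

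**Figure D3:**
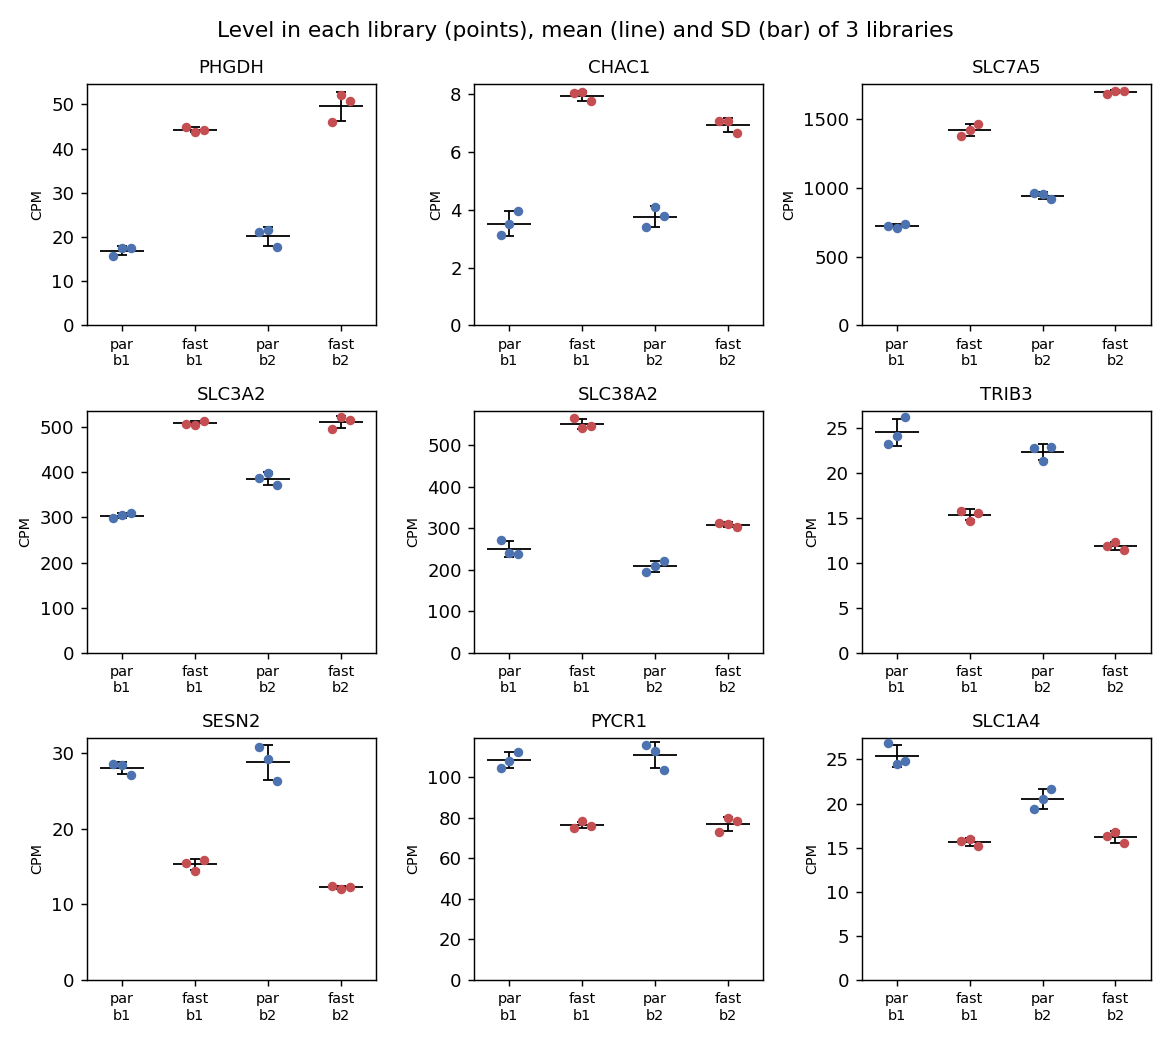
TMM-normalised CPM (vertical axes, starting at 0) of 9 genes in each library, in parental (blue) and fast (red) cells of batch 1 (b1) and batch 2 (b2), where points are libraries, lines are means of 3 libraries and bars are SD. Fast and parental libraries do not overlap in any of the 9 panels, and in the SLC38A2 panel the fast libraries of batch 1, at 541 to 564 CPM, stand well above those of batch 2, at 303 to 314 CPM.

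DDIT4, an inhibitor of mTORC1 also known as REDD1, differed more between batches than between populations. DDIT4 stood at 26.7, 32.98 and 31.4 CPM in the parental and 39.1, 39.02 and 36.1 CPM in the fast libraries of batch 1, and at 22.1, 18.1 and 21.1 and 22.1, 20.5 and 19.6 CPM in those of batch 2. All 6 libraries of batch 1 lay above all 6 of batch 2. The call (0.18 ± 0.068 SE, edgeR adjusted p = 0.0283) rested on batch 1 (log2 fold changes of 0.33 ± 0.067 SE in batch 1 and 0.025 ± 0.07 SE in batch 2). It was lost without the batch term (0.21 ± 0.23 SE, edgeR adjusted p = 0.474), and it turned to -0.26 when centred on neighbours at 0.44. VLDLR, a lipoprotein receptor that ATF4 is known to induce, was not called, with a mean of 10.2 CPM in parental and 10.7 CPM in fast cells (0.081 ± 0.061 SE, edgeR adjusted p = 0.257). Without parental batch 1 replicate 2 it was called (0.15, edgeR adjusted p = 0.0338).

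All 3 enzymes of serine synthesis were higher, and the first far more than the others. PHGDH stood at 15.7, 17.4 and 17.6 CPM in the parental and 45.0, 43.8 and 44.2 CPM in the fast libraries of batch 1, and at 21.2, 21.5 and 17.7 and 45.9, 52.1 and 50.8 CPM in those of batch 2. The fast libraries stood far above all parental ones, with no overlap. PHGDH, which takes 3-phosphoglycerate into the pathway, rose 2.54-fold (1.34 ± 0.046 SE, edgeR adjusted p = 1.05e-22), and its neighbours on chromosome 1 had a median of -0.066. PSAT1 stood at 168, 163 and 162 CPM in the parental and 178, 176 and 190 CPM in the fast libraries of batch 1, and at 164, 162 and 156 and 184, 197 and 193 CPM in those of batch 2. PSAT1, the aminotransferase of the second step, rose 1.15-fold (0.20 ± 0.028 SE, edgeR adjusted p = 1.67e-07). PSPH stood at 35.2, 35.9 and 34.4 CPM in the parental and 38.9, 40.02 and 44.3 CPM in the fast libraries of batch 1, and at 33.3, 32.9 and 33.1 and 40.5, 44.7 and 42.8 CPM in those of batch 2. PSPH, the phosphatase of the last step, rose 1.23-fold (0.29 ± 0.039 SE, edgeR adjusted p = 4.18e-08). In PSAT1 and PSPH too, every fast library was above every parental one, though the gap was small. Centred on neighbours, the 3 log2 fold changes were 1.41, 0.29 and 0.23, all still called. PSPH has a near-identical pseudogene, PSPHP1, which took 131 to 230 counts a library against 1975 to 3115 for PSPH, so that the split of reads between them is uncertain. Divided by the union of annotated exons, PHGDH was the lowest of the pathway, at 2.01 CPM per kilobase in parental and 5.09 in fast cells. That place rests on the lengths used, 9.22 kilobases for PHGDH, 2.19 for PSAT1 and 2.76 for PSPH. Without division by length, PHGDH had 18.5 CPM in parental and 47.0 CPM in fast cells, and PSPH 34.1 and 41.9 CPM. PSAT1 stood at 74.2 and 85.2, and PSPH at 12.4 and 15.2 CPM per kilobase.

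One-carbon enzymes pass the carbon taken from serine on to folate. All 4 mitochondrial enzymes of the set were called higher in fast cells, while of its 2 cytosolic ones MTHFD1 was lower and SHMT1 was not called. Outside the set, the mitochondrial MTHFD2L, a paralog of MTHFD2, fell (-0.79 ± 0.064 SE), and no difference between compartments was tested. SHMT2 stood at 189, 193 and 196 CPM in the parental and 274, 269 and 271 CPM in the fast libraries of batch 1, and at 205, 212 and 203 and 277, 280.3 and 281 CPM in those of batch 2. SHMT2, which cleaves serine in mitochondria, rose 1.38-fold (0.46 ± 0.024 SE, edgeR adjusted p = 3.16e-18), with no overlap between populations. Its cytosolic counterpart SHMT1 had means of 39.4 and 38.7 CPM (-0.026 ± 0.034 SE, edgeR adjusted p = 0.527). MTHFD1 stood at 339, 325 and 331 CPM in the parental and 272, 269.6 and 282 CPM in the fast libraries of batch 1, and at 316, 309.5 and 314 and 275, 268 and 268 CPM in those of batch 2. MTHFD1, the cytosolic enzyme of 3 folate steps, fell by 0.24 on the log2 scale (SE 0.024, edgeR adjusted p = 8.54e-11), and every fast library was below every parental one. Its neighbours had a median of -0.17, and centred on them its value was -0.068 (edgeR adjusted p = 0.0171). MTHFD2, the mitochondrial dehydrogenase, rose 1.13-fold (0.18 ± 0.032 SE, edgeR adjusted p = 1.2e-05), and its call was lost when centred on neighbours (0.025, edgeR adjusted p = 0.524).

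As a ratio of levels per kilobase of exon, SHMT2 over SHMT1 ran from 10.3 to 11.1 in the 6 fast libraries and from 6.89 to 8.14 in the 6 parental ones. MTHFD2 over MTHFD1 ran from 0.580 to 0.645 and from 0.432 to 0.492. Neither ratio overlapped between populations. A ratio within a library shows unequal change of the 2 genes and not which of them moved. MTHFD1L, which releases formate in mitochondria, rose 1.07-fold (0.10 ± 0.029 SE, edgeR adjusted p = 0.00299). When the 3 libraries of each population in a batch were summed, leaving 4 samples, its call was lost (edgeR adjusted p = 0.0703), and turned to -0.081 when centred on neighbours. ALDH1L2 stood at 0.351, 0.295 and 0.3103 CPM in the parental and 0.933, 0.954 and 1.06 CPM in the fast libraries of batch 1, and at 0.169, 0.414 and 0.3501 and 1.105, 0.933 and 0.594 CPM in those of batch 2. ALDH1L2, which oxidizes a mitochondrial folate, was thus near the limit of detection, yet no fast library was as low as a parental one (1.54 ± 0.22 SE, edgeR adjusted p = 2.55e-07).

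Both proline synthesis enzymes of the set were lower. PYCR1 stood at 105, 108 and 113 CPM in the parental and 75.03, 78.2 and 75.9 CPM in the fast libraries of batch 1, and at 116, 113 and 104 and 73.1, 79.8 and 78.4 CPM in those of batch 2. PYCR1, the mitochondrial reductase of the last step, was 1.43 times lower (-0.52 ± 0.031 SE, edgeR adjusted p = 1.72e-16), with no overlap. ALDH18A1 stood at 147, 149 and 149 CPM in the parental and 129, 125 and 130 CPM in the fast libraries of batch 1, and at 167, 167 and 161 and 132, 140.2 and 129 CPM in those of batch 2. ALDH18A1, the synthase of the first step, was 1.196 times lower (-0.26 ± 0.027 SE, edgeR adjusted p = 2.44e-10), again with every fast library below every parental one. Its neighbours rose, at a median of 0.33, and centred on them its fall was -0.59. PYCR1 had neighbours at -0.0082.

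Asparagine synthetase, a textbook ATF4 target whose promoter match is printed above, was not called. ASNS stood at 56.2, 55.98 and 56.9 CPM in the parental and 51.1, 61.3 and 54.6 CPM in the fast libraries of batch 1, and at 55.3, 58.1 and 53.96 and 53.5, 53.7 and 56.8 CPM in those of batch 2. The fast libraries of batch 1 spread more widely than the rest and bracketed the parental values. The log2 fold change of ASNS was -0.024 ± 0.036 SE, edgeR adjusted p = 0.587. Of its 4455 exon bases, 1985 overlap the gene AC079781.5 on the same strand, so that reads there cannot be assigned with certainty. GPT2, the mitochondrial alanine aminotransferase, rose 1.12-fold (0.16 ± 0.033 SE, edgeR adjusted p = 6.11e-05) beside neighbours at 0.47, and centred on them it was lower (-0.31, edgeR adjusted p = 6.7e-10). GOT1, the cytosolic aspartate aminotransferase, had the smallest call of the set (0.08 ± 0.029 SE, edgeR adjusted p = 0.017). That call was lost with no filter on low counts (edgeR adjusted p = 0.0571), when genes under a mean of 1 CPM were dropped (0.0686), without the batch term (0.337) and on sums of libraries (0.141), and the sign turned when centred on neighbours (-0.43). The mitochondrial paralog GOT2 rose by more, with 149 CPM in parental and 233 CPM in fast cells (0.64 ± 0.026 SE, edgeR adjusted p = 2.64e-21).

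Transsulfuration, which makes cysteine from homocysteine and serine, was low. CBS, its first enzyme, had 2 counts in fast replicates 1 and 3 and in parental replicate 3 of batch 1 and 0 in the other 9 libraries. At that depth no difference is detectable. CTH stood at 11.7, 10.8 and 12.3 CPM in the parental and 7.46, 7.87 and 7.501 CPM in the fast libraries of batch 1, and at 14.2, 13.2 and 11.7 and 6.56, 6.57 and 7.13 CPM in those of batch 2. CTH, the second enzyme, was 1.72 times lower in fast cells (-0.78 ± 0.068 SE, edgeR adjusted p = 3.34e-12), with no overlap, and centred on neighbours at -0.38 it kept a fall of -0.40.

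The transporters gave the set's largest changes in absolute level. Their 7 genes summed to 3639 to 3741 CPM in fast and 2216 to 2630 CPM in parental libraries, of 6538 to 6703 and 4866 to 5364 CPM for the whole set, and 5 were higher, 1 lower and 1 not called. SLC7A5 stood at 726, 713 and 738 CPM in the parental and 1380, 1420 and 1466 CPM in the fast libraries of batch 1, and at 961, 955 and 919.9 and 1687, 1704 and 1706 CPM in those of batch 2. SLC7A5 (LAT1), the carrier of leucine and other large neutral amino acids, rose 1.88-fold (0.91 ± 0.025 SE, edgeR adjusted p = 1.53e-25), and every fast library was above every parental one. SLC3A2 stood at 298, 306 and 309 CPM in the parental and 509, 505 and 515 CPM in the fast libraries of batch 1, and at 387, 399.6 and 373 and 496, 522 and 516 CPM in those of batch 2. SLC3A2 (CD98), the heavy chain that carries LAT1 to the membrane, rose 1.49-fold (0.57 ± 0.056 SE, edgeR adjusted p = 2.27e-06), again with no overlap. The neighbours of SLC7A5 on chromosome 16 rose as well, at a median of 0.52, and those of SLC3A2 on chromosome 11 fell, at -0.32. Centred on them, the log2 fold changes were 0.38 and 0.90, both called. Per kilobase of exon the ratio of light to heavy chain, SLC7A5 over SLC3A2, ran from 2.96 to 3.71 in fast and from 2.55 to 2.71 in parental libraries, with no overlap.

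The sodium-coupled neutral amino acid transporters SLC38A1 and SLC38A2 were both higher. SLC38A2 stood at 272, 239 and 238 CPM in the parental and 564, 541 and 547 CPM in the fast libraries of batch 1, and at 194, 209 and 221 and 313, 309.6 and 303 CPM in those of batch 2. The fast libraries were above the parental ones in both batches, by far more in batch 1. SLC38A2 (SNAT2), which amino acid shortage is known to induce, rose 1.81-fold (0.86 ± 0.10 SE, edgeR adjusted p = 3.57e-05), but on those sums of libraries, with 4 samples, the call was lost (edgeR adjusted p = 0.226). SLC38A1 stood at 303, 281 and 279 CPM in the parental and 449.9, 444 and 464 CPM in the fast libraries of batch 1, and at 255, 259 and 270 and 379.8, 391 and 378 CPM in those of batch 2. SLC38A1 (SNAT1) rose 1.52-fold (0.60 ± 0.027 SE, edgeR adjusted p = 7.18e-20), with no overlap. Both lie on chromosome 12, with neighbours at 0.29 and 0.28, and both stayed called when centred on them (0.56 and 0.33). The 2 genes are close to each other, so that each may count among the other's neighbours.

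SLC1A4 stood at 26.9, 24.5 and 24.8 CPM in the parental and 15.7, 15.98 and 15.2 CPM in the fast libraries of batch 1, and at 19.4, 20.5 and 21.7 and 16.3, 16.8 and 15.5 CPM in those of batch 2. SLC1A4 (ASCT1), an exchanger of serine and alanine, was the transporter that fell (-0.52 ± 0.055 SE, edgeR adjusted p = 5.23e-10), and every fast library was below every parental one. SLC1A5 stood at 369, 362 and 374 CPM in the parental and 389, 391 and 399 CPM in the fast libraries of batch 1, and at 458, 464 and 446 and 409.7, 432 and 433 CPM in those of batch 2. SLC1A5 (ASCT2), the exchanger of glutamine, was called in neither direction over both batches (-0.0038 ± 0.029 SE, edgeR adjusted p = 0.924). Its fast libraries lay above the parental ones in batch 1 and below them in batch 2, and all 3 parental libraries of batch 2 were above every other library. SLC7A1 (CAT1), the carrier of arginine and lysine, rose 1.08-fold (0.11 ± 0.025 SE, edgeR adjusted p = 0.000127), and centred on neighbours it had -0.03 (edgeR adjusted p = 0.317).

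Of the 5 cytosolic tRNA synthetases, which load amino acids onto tRNAs, 4 were higher and WARS was not called. AARS stood at 109, 111 and 110 CPM in the parental and 168, 174 and 167 CPM in the fast libraries of batch 1, and at 120.2, 119.7 and 116 and 183, 186 and 184 CPM in those of batch 2. AARS, for alanine, rose 1.55-fold (0.63 ± 0.025 SE, edgeR adjusted p = 1.47e-21), with no overlap. Its neighbours on chromosome 16 rose further, at a median of 0.78, and centred on them AARS was lower (-0.15, edgeR adjusted p = 3.96e-06). GARS, for glycine, rose 1.18-fold (0.23 ± 0.024 SE, edgeR adjusted p = 1.31e-10) and lost its call when centred (0.048, edgeR adjusted p = 0.0865). MARS, for methionine, rose 1.18-fold (0.24 ± 0.025 SE, edgeR adjusted p = 4.2e-10), and SARS, for serine, 1.11-fold (0.15 ± 0.025 SE, edgeR adjusted p = 3.18e-06). Both kept their calls when centred (0.15 and 0.13), and in all 4 genes every fast library was above every parental one. WARS stood at 146, 139.7 and 146 CPM in the parental and 153, 151 and 153 CPM in the fast libraries of batch 1, and at 142, 145 and 139 and 134, 133 and 131 CPM in those of batch 2. WARS, for tryptophan, was above parental in batch 1 and below it in batch 2 by small steps (-0.0093 ± 0.029 SE, edgeR adjusted p = 0.803 over both).

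Ordered by level per kilobase of exon in parental cells, SLC7A5 came first at 176 CPM per kilobase, followed by SLC1A5 at 124, ATF4 at 99.8, PSAT1 at 74.2 and SLC3A2 at 66.7. The lower end held VLDLR at 1.09 and ALDH1L2 at 0.03701, with CBS last. In fast cells SLC7A5, SLC1A5 and ATF4 again led, at 329, 123 and 108 CPM per kilobase. By rank among the 37, SLC38A2 moved from place 13 to 7, PHGDH from 33 to 29 and ALDH18A1 from 8 to 14. The lengths are unions of annotated exons, so that the order depends on which isoforms are used.

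The effect differed between the batches for 9 of the 36 genes in edgeR's test of the difference itself, or 25.0%, against 5.40% of all genes and 8.94% of those at a mean of at least 5 CPM. The effect in batch 2 was more negative for 8 of them and more positive for 1, or 22.2% and 2.78%, against 3.65% and 1.75% of all genes. Over all genes the split was 827 to 396, and it turned to 522 to 575 with DESeq2 size factors in place of TMM, under which 5 of the listed genes were more negative and 1 more positive. The largest difference was in SLC38A2, with log2 fold changes of 1.14 ± 0.043 SE in batch 1 and 0.57 ± 0.043 SE in batch 2. SLC3A2 had 0.74 ± 0.031 SE in batch 1 and 0.40 ± 0.031 SE in batch 2, and CEBPB 0.48 ± 0.039 SE in batch 1 and 0.13 ± 0.039 SE in batch 2. These 3 rose in both batches, and by less in batch 2. SESN2 fell in both, with -0.88 ± 0.062 SE in batch 1 and -1.23 ± 0.062 SE in batch 2, and so did SLC1A4, the one gene whose effect was less negative in batch 2, with -0.70 ± 0.062 SE in batch 1 and -0.34 ± 0.061 SE in batch 2.

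ATF4 itself rose in batch 1 (0.21 ± 0.032 SE, edgeR adjusted p = 2.06e-07) and was not called in batch 2 (0.035 ± 0.032 SE, edgeR adjusted p = 0.363). Without fast batch 2 replicate 2 the batch 2 value was 0.083 and was called (edgeR adjusted p = 0.047), and with other libraries left out it was not. CEBPG had 0.25 ± 0.04 SE in batch 1 and 0.055 ± 0.04 SE in batch 2. With any 1 library left out its batch 2 value was higher, from 0.057 to 0.095, and was not called. The batch 2 values of CEBPB, SLC3A2, SLC1A5 and WARS likewise lay below all those with 1 library left out. Those of ATF4, SESN2, SLC1A4 and SLC38A2 lay within theirs. SLC1A5 had 0.093 ± 0.03 SE in batch 1 and -0.10 ± 0.03 SE in batch 2, and WARS 0.079 ± 0.032 SE in batch 1 and -0.097 ± 0.032 SE in batch 2. The differences of ATF4, CEBPG, SLC1A5 and WARS were the smallest, between -0.18 and -0.19. The calls of these 4 and of SESN2 were each lost when single libraries of batch 2 were left out. In some of the same cases the split over all genes turned as well. The more negative and more positive genes numbered 354 and 629 without fast batch 2 replicate 1, and 337 and 632 without replicate 2. They numbered 356 and 803 without replicate 3, and 438 and 819 without parental batch 2 replicate 3. With any other library left out the more negative stayed the more numerous. Whether the lost calls are particular to these genes was not tested. PHGDH, AARS, SHMT2, PYCR1 and MARS, by contrast, had nearly the same effect in both batches, with 1.39 and 1.30, 0.63 and 0.64, 0.49 and 0.44, -0.51 and -0.52, and 0.24 and 0.23. Over the 36 genes Pearson's r between the effects of the 2 batches was 0.95 and Spearman's rho 0.89, a description over genes, as over 16190 genes (0.96 and 0.91).

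**Figure D4:**
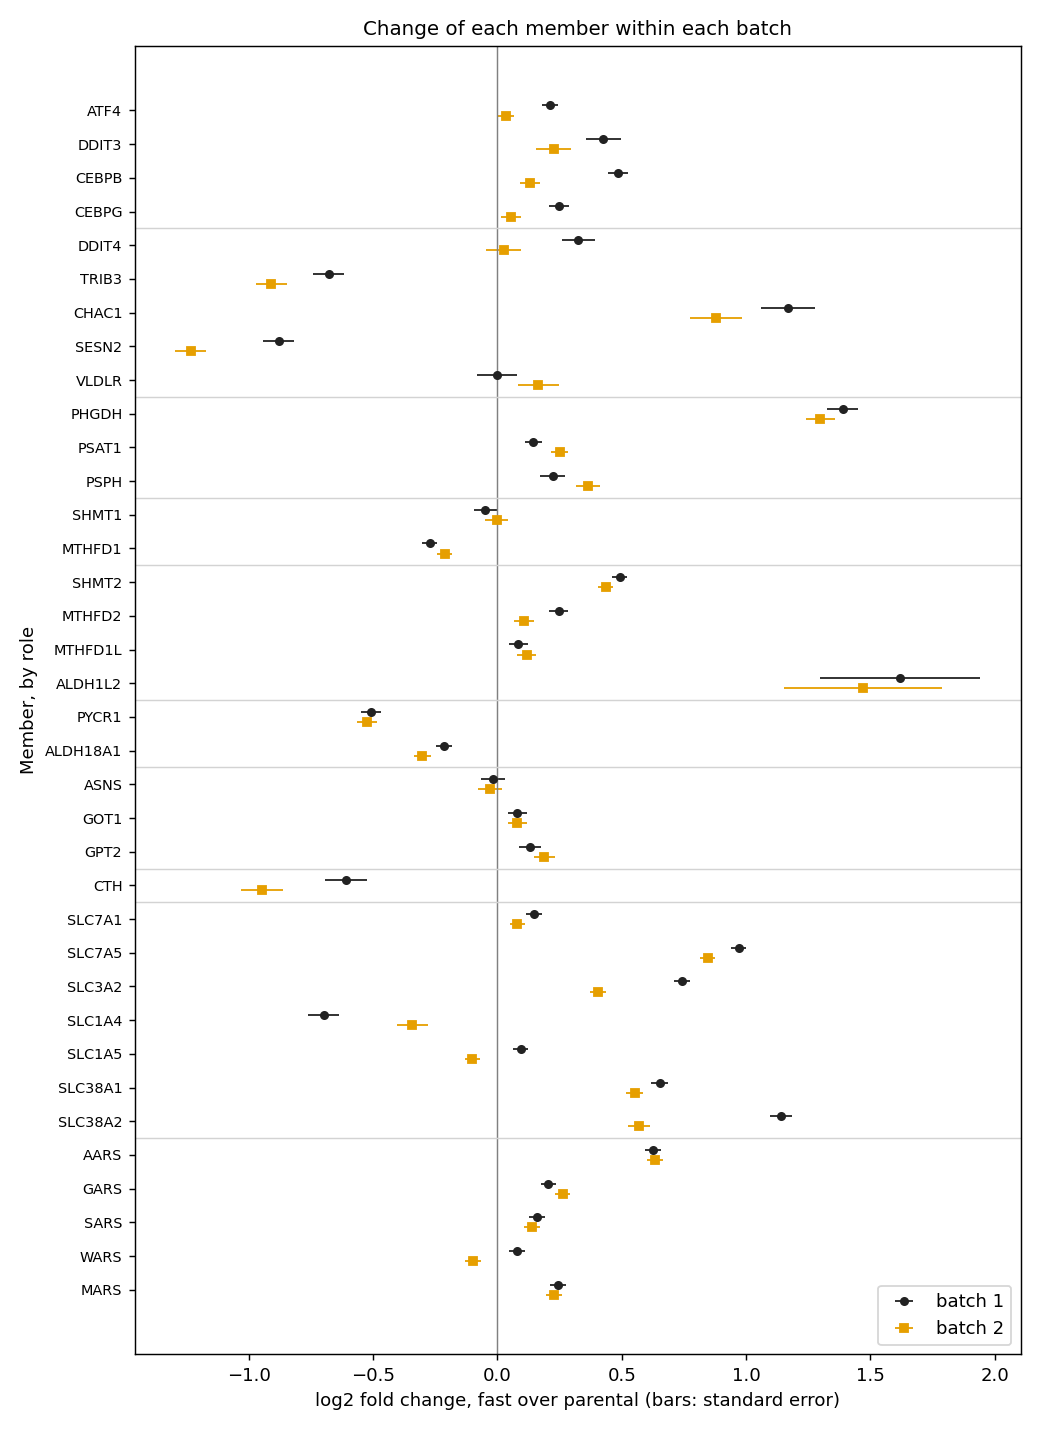
Log2 fold change of each of the 36 genes, fast over parental, in batch 1 (black circles) and batch 2 (orange squares), with bars for the standard error and genes grouped by role. SLC38A2, SLC3A2 and CEBPB lie further right in batch 1, SLC1A5 and WARS lie on opposite sides of 0, and PHGDH, PYCR1 and AARS nearly coincide.

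Genes upstream of ATF4 and around the pathway were counted from other lists, drawn up with earlier results known. Beside each list stand the shares of all genes tested, 31.9% higher and 31.5% lower, with a median log2 fold change of 0.0055. Among genes at a mean of at least 5 CPM the shares were 43.5% and 36.1%. Of the 16 genes for eIF2 kinases, eIF2 and eIF2B subunits and phosphatase regulators, 5 were higher and 8 lower, with a median log2 fold change of -0.091. EIF2B3, a subunit of the exchange factor eIF2B, fell (-0.61 ± 0.035 SE), as did the eIF2 subunit EIF2S3 (-0.49 ± 0.027 SE), while PPP1R15A (GADD34), which brings a phosphatase to eIF2, rose (0.57 ± 0.082 SE). Of 17 tested among other ATF4 targets and partners, 5 were higher and 5 lower, with a median of 0.0091. GDF15, a stress cytokine, rose (1.23 ± 0.17 SE), and the growth arrest gene GADD45A fell (-0.89 ± 0.087 SE). NUPR1, a stress-induced chromatin protein, had 0.348 CPM in parental and 0.020 CPM in fast cells, with at most 38 counts in a library. It is counted among the lower genes but passed the low-count filter only through parental libraries.

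In both of these lists the share of higher calls was near the 31.9% of all genes tested. It was below the 43.5% of genes at a mean of at least 5 CPM. Lower calls were 8 of 16 in the eIF2 list and 5 of 17 in the other, against 31.5% and 36.1%. Higher calls thus did not prevail as in the 36 genes, and the eIF2 list had more lower than higher calls. The difference between lists was not tested. Of 15 other cytosolic synthetases, 5 were higher and 7 lower (median 0.031). KARS, for lysine, rose (0.55 ± 0.024 SE, neighbours at 0.56), and NARS, for asparagine (-0.47 ± 0.026 SE), and YARS, for tyrosine (-0.36 ± 0.025 SE), fell. Of 17 mitochondrial synthetases, 2 were higher and 8 lower (median -0.081), and FARS2 (-0.78 ± 0.055 SE), PARS2 (-0.55 ± 0.08 SE) and NARS2 (-0.37 ± 0.048 SE) fell most. Of 18 genes of the IRE1 and ATF6 arms of the unfolded protein response, 4 were higher and 11 lower (median -0.16). HERPUD1, of protein disposal at the endoplasmic reticulum, rose (0.67 ± 0.063 SE), while the chaperone HYOU1 (-0.50 ± 0.026 SE) and the secreted factor MANF (-0.46 ± 0.029 SE) fell.

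Of 22 tested genes of the folate, glycine and methionine cycles, 9 were higher and 6 lower (median 0.076). Thymidylate synthase TYMS rose (0.93 ± 0.026 SE) beside neighbours at 0.72, and so did FPGS, which adds glutamates to folate (0.83 ± 0.031 SE). The glycine decarboxylase GLDC, counted among the 9 higher, had at most 14 counts in a library, with 0.030 CPM in parental and 0.12 CPM in fast cells. It passed the low-count filter mainly through fast libraries, so that its call is no independent evidence of a rise. Within either batch it was not called (edgeR adjusted p = 0.0525 and 0.216). MTHFD2L was among the lower ones, and ALDH1L1, the cytosolic paralog of ALDH1L2, was not called (0.074 ± 0.12 SE). Of 17 other tested enzymes of amino acid metabolism, 11 were higher and 3 lower (median 0.18). Glutamine synthetase GLUL was the exception in size, with 17.1 CPM in parental and 1.28 CPM in fast cells (-3.76 ± 0.089 SE). The argininosuccinate synthase ASS1 (0.75 ± 0.05 SE) and ALDH4A1, of proline breakdown (0.70 ± 0.051 SE), rose, and GPT, the paralog of GPT2, was not called (-0.50 ± 0.22 SE).

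Of 17 other tested amino acid transporters, 5 were higher and 8 lower (median -0.24). Their list was drawn up under the heading of the plasma membrane. The place of each protein in the cell was not checked, so that the list may hold carriers of other membranes. SLC6A14, a broad carrier of neutral and basic amino acids, had 0 counts in fast cells (6 libraries summed) against 378 in parental cells, and was at least 128-fold lower when the fast total is set to a floor of 3 counts. SLC6A9, a glycine carrier, fell (-0.77 ± 0.07 SE), and SLC38A7, a carrier of glutamine, rose (0.68 ± 0.045 SE). Of 18 genes of amino acid sensing by mTORC1, 7 were higher and 6 lower (median 0.031). FLCN, folliculin, rose (0.89 ± 0.039 SE), the GTPase gene RRAGD rose (0.63 ± 0.055 SE) and RRAGB fell (-0.80 ± 0.068 SE, neighbours at -0.74). SESN1 and SESN3, the paralogs of SESN2, were not called (0.029 ± 0.072 SE and -0.084 ± 0.076 SE).

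**Figure D5:**
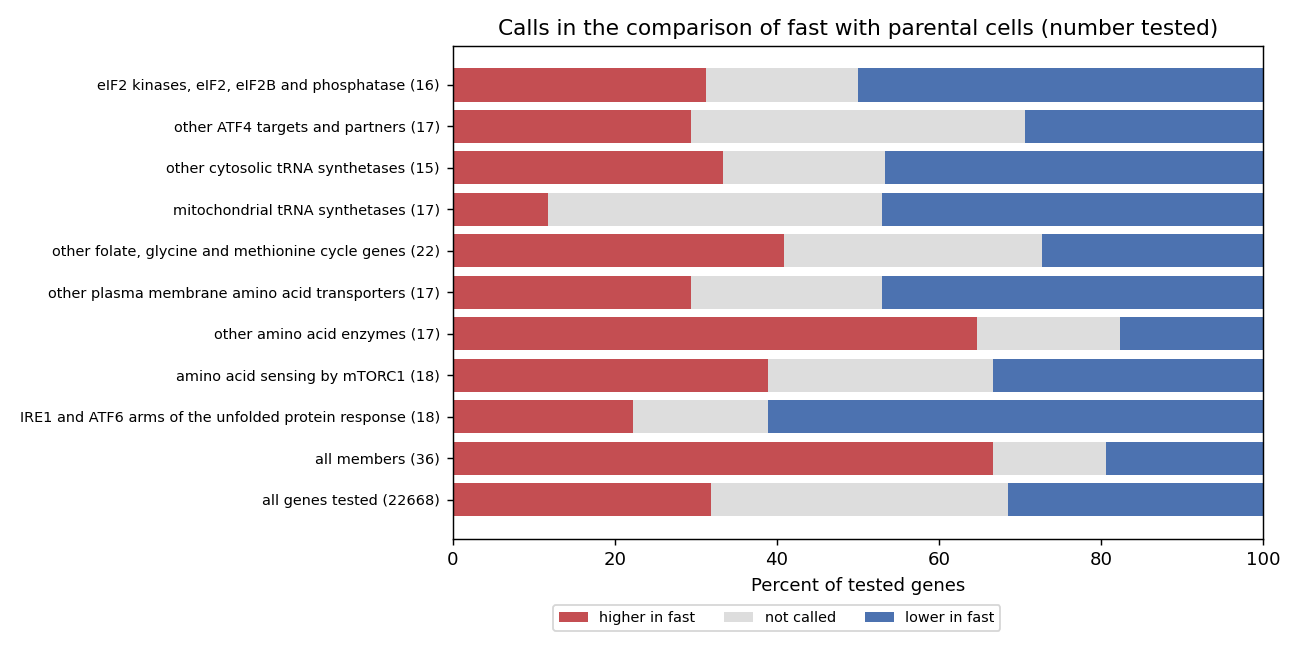
Percent of the tested genes of each list (number tested in parentheses) called higher in fast cells (red), lower (blue) or not called (grey) by edgeR at an adjusted p under 0.05, beside the 36 genes of the set and all 22668 genes tested. The set and the list of other amino acid enzymes show the longest red bars, and all genes split nearly evenly into higher and lower.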

How the data were processed

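RNA was taken from cultured cells with a spin-column kit, per the labels' protocols. The deposited table holds the authors' raw counts of reads per gene, not normalized, for 60234 genes in 12 libraries, all matched to samples by the labels. The submitters' processing notes name Trimmomatic 0.32, STAR 2.3.0e and featureCounts 1.4.4, and the builds hg19 and GRCh37. Strand use and the treatment of multiply matching reads are not given in the sources used here.

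The counts were analysed in R 4.3.3 with edgeR 4.0.16 (TMM factors, robust quasi-likelihood F test) after a low-count filter by population and batch (minimum count 10, minimum total 15). Benjamini-Hochberg adjustment ran over 22668 genes. The overall effect had batch as a term, and effects within batches and their difference came from contrasts of the 4 group means. Neighbour medians came from GENCODE release 29 by gene ID. DESeq2 1.42.0 and limma 3.58.1 were alternatives. On simulated counts of 22668 genes, fast against parental recovered 90% of 50 genes at a 1.25-fold change, 96% of 50 at 1.5-fold and 100% of 50 at 2-fold.

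The 37 genes and all lists were chosen with earlier results of these data known. Any of the 37 could be named. Of other lists, up to 3 genes with the largest called change of the same sign in both batches were named, plus paralogs of listed genes. Marker genes named were those of the line, those at 0 and the highest of each other cell type. A marker and a paralog that this rule would name are not reported here. Same-numbered libraries of the 2 populations were not paired in the main fit, since the labels state no pairing. Their deviations from the group means had correlations of -0.0763 to 0.0740, and those of differently numbered libraries -0.163 to 0.153. With 3 libraries in a group these values cannot settle whether libraries were paired. The numbers are those of the sample titles, which differ from those of the count columns for some libraries of batch 1.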

Additional observations from a re-analysis of the deposited data

Results flagged for a closer look

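The effect of fast over parental differed between the batches, by a test of the difference itself, for 9 of the 36 genes. Values are the log2 effect in batch 2 minus that in batch 1. The 4 fitted group means rest on 3 libraries each.

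SLC38A2 had the largest difference (-0.57 ± 0.06 SE, edgeR adjusted p = 1.58e-07), followed by SLC1A4 (0.36 ± 0.087 SE, edgeR adjusted p = 0.00732), CEBPB (-0.35 ± 0.055 SE, edgeR adjusted p = 1.57e-05), SESN2 (-0.35 ± 0.087 SE, edgeR adjusted p = 0.00853) and SLC3A2 (-0.34 ± 0.044 SE, edgeR adjusted p = 3.66e-07). The calls of SLC38A2, SLC1A4, CEBPB and SLC3A2 held with each of the 12 libraries left out in turn. That of SESN2 was lost without fast batch 2 replicate 2 (edgeR adjusted p = 0.0788) or 3 (0.0559).

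SLC1A5 (-0.19 ± 0.043 SE, edgeR adjusted p = 0.00283) lost its call without fast batch 2 replicate 1 (edgeR adjusted p = 0.154) or 2 (0.0538). ATF4 (-0.18 ± 0.045 SE, edgeR adjusted p = 0.0115) lost it without fast batch 1 replicate 3, any 1 of the fast libraries of batch 2, or parental batch 2 replicate 1 or 3 (0.0553 to 0.254). WARS (-0.18 ± 0.046 SE, edgeR adjusted p = 0.0135) lost it without any 1 of the fast libraries of batch 2, parental batch 1 replicate 2, or parental batch 2 replicate 2 or 3 (0.0597 to 0.229). CEBPG (-0.19 ± 0.056 SE, edgeR adjusted p = 0.0316) lost it in 9 of the 12 cases, all but those without fast batch 1 replicate 3 and parental batch 1 replicates 1 and 3 (0.0509 to 0.282). Without any 1 of the fast libraries of batch 2, or parental batch 2 replicate 3, the split over all genes turned as well.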

How the results depend on the processing

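The counts of higher and lower genes over both batches (24 and 7 of 36) stayed between 21 and 25 higher and at 7 lower under all alternatives except centring on neighbours, which gave 14 higher and 14 lower. The difference between batches was less stable. The 8 genes more negative in batch 2 became 5 with DESeq2 size factors and 4 with no low-count filter, and 3 to 8 when 1 library was left out. The 1 gene more positive became 2 with no low-count filter and 2 when genes under a mean of 1 CPM were dropped, and 1 to 2 with a library left out. Over all genes, the 396 more positive and 827 more negative genes became 966 and 411 with no filter, 740 and 576 at a mean of 1 CPM and 800 and 687 in DESeq2's Wald test. The causes were not tested.

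Signs turned for these genes. Centred on neighbours, the log2 fold changes were -0.26 for DDIT4, 0.011 for SESN2, -0.081 for MTHFD1L, -0.43 for GOT1, -0.31 for GPT2, -0.030 for SLC7A1, -0.15 for AARS and 0.33 for WARS. On sums of libraries SLC1A5 had 0.0061 and WARS 0.0023. In batch 1, VLDLR had 0.0065 with limma-voom. In batch 2, SHMT1 had 0.0033 with DESeq2 size factors, 0.023 with no filter and 0.0032 in DESeq2's test. With 1 library left out, the effect over both batches ran from -0.047 to 0.013 for ASNS, -0.011 to 0.023 for SLC1A5 and -0.019 to 0.017 for WARS. In batch 1 it ran from -0.065 to 0.11 for VLDLR and -0.085 to 0.052 for ASNS, and in batch 2 from -0.045 to 0.094 for DDIT4, -1.57e-04 to 0.036 for SHMT1 and -0.028 to 0.014 for ASNS. Apart from the centred values of DDIT4, MTHFD1L, GOT1, GPT2, AARS and WARS, none of these turned values was called. Leaving out 1 library also changed within-batch calls of GOT1 (0.080 in each batch, up to 0.10 and 0.12 and then called), MTHFD1L (0.084 in batch 1, up to 0.12 and called) and GPT2 (0.13 in batch 1, 0.099 and not called without fast batch 2 replicate 1).

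The labels do not say whether the replicate numbers pair libraries. With the number as a replicate block, the higher and lower counts over both batches were again 24 and 7, and within the set only WARS in batch 1 (edgeR adjusted p = 0.0552) and the difference of CEBPG (0.0678) lost their calls. Depth limits CBS and ALDH1L2, and the p-values cover only how the 12 libraries vary, which may be technical.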
